A study of Mus musculus with 2 samples.

Results

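Early erythroid cells are the dividing progenitors from which red blood cells mature, and 271 of 23397 cell barcodes from the spleens of infected mice met a rule for them. Members were chosen by measured transcripts: a barcode was taken when its transcripts of Car1, Klf1 and Ermap summed to at least 3, hemoglobin transcripts made up less than 20% of its total, Cd3e and Cd79a were both at 0, and Mpo, Elane and Prtn3 together stayed under 5. The rule kept 203 PEP-WT barcodes of 14821 and 68 PEP-619WW barcodes of 8576. A transcript here is a unique molecular identifier (UMI), the tag that marks 1 captured RNA molecule in the 10x Genomics 3′ assay.

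The mice were C57BL/6 animals with the wild type Ptpn22 gene (PEP-WT) or with both copies edited by CRISPR/Cas9 to the mouse form of the autoimmunity-associated variant (PEP-619WW). Both genotypes had been infected with LCMV-cl13 (clone 13 of lymphocytic choriomeningitis virus, which establishes a chronic infection), and spleens were taken at 8 dpi, with no uninfected library among those analysed. For each genotype the splenocytes of 4 to 5 mice matched for age and sex were pooled, the red cells were lysed, and live CD45+ cells were sorted into 1 library. Of 2 deposited count sets per genotype, both under this one design text, the set analysed here (run 1) is not the set whose barcode numbers equal the cell numbers given in the study's methods, which is run 2. That the pooling, infection and sort apply to run 1 is therefore taken from the series' design text and is an assumption. With 1 library per genotype the mice of a pool cannot be told apart, no difference has a replicate check, and no test between genotypes was possible. All intervals are exact or score intervals at 95% and cover counting error only. The sample labels name liver, the Jurkat line and tumor-infiltrating cells, whereas the protocol and design text describe mouse splenocytes.

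The spleen of a mouse is an organ of red cell production, which expands under infection, anemia and inflammation. Progenitors that express Kit and Gata2 give way to cells driven by the transcription factors Gata1 and Klf1 and kept alive by the erythropoietin receptor Epor, which then take up iron through the transferrin receptor Tfrc, make heme and fill with hemoglobin while losing surface CD45. Type I and type II interferons, which viral infection induces, bind receptors on nearly all nucleated cells and switch on a shared set of interferon-stimulated genes through STAT and IRF factors.

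The sequences shown are the stretches before the start sites of interferon-stimulated genes, given as context because 36 of the 63 such genes with enough counts were at least 1.5-fold lower in PEP-619WW, beside 4.87% of all genes tested. The motif searched on both strands was GAAA, any 2 bases and GAAA again, the core of the element that STAT and IRF complexes bind. It was found in the 250 bases before the start in 12 of 27 lower genes with a RefSeq window (44.4%) and in 6 of 23 other interferon-stimulated genes (26.1%). It was found in 936 of 27025 genes (3.46%) with such a window, and in 1 of 24 heme synthesis and red cell membrane genes. A match of letters does not show a bound site. The 4 lower genes with the most UMIs that hold the motif are given below, with genes of 1 chromosome left out of this choice. Each is shown on its own strand with the motif in capitals, from RefSeq on GRCm38.p6. They are the ubiquitin-like modifier Isg15 (chr4:156200819-156201068, minus strand), the membrane tether of budding virus Bst2 (chr8:71537473-71537722, minus strand), and the interferon-induced GTPases Gbp2 (chr3:142620413-142620662, plus strand) and Igtp (chr11:58199306-58199555, plus strand).
Isg15: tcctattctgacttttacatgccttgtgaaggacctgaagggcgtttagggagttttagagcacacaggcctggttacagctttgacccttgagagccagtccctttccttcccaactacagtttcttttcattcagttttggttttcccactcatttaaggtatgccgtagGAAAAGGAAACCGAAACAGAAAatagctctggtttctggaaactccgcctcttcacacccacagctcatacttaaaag
Bst2: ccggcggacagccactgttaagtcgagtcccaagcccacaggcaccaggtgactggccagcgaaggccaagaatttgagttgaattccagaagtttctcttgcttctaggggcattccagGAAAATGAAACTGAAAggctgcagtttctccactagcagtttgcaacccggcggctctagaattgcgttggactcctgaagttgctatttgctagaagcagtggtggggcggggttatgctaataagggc
Gbp2: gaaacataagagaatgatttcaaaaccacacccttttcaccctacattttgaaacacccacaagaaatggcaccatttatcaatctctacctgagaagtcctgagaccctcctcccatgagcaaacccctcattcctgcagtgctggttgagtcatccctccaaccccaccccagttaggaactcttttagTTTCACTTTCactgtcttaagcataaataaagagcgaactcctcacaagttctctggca
Igtp: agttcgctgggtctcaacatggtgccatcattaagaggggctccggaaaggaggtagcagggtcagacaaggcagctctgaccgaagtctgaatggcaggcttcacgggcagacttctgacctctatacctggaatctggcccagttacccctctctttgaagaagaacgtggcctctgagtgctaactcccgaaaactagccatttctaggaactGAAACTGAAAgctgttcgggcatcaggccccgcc
In Isg15, 3 matches overlap, in Bst2 2 overlap, and Gbp2 and Igtp hold 1 match each, which lies on the opposite strand in Gbp2.

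The early erythroid barcodes were deeper than the libraries they came from. The rule asks for at least 3 UMIs of its genes and so favors deep barcodes, and its part in this depth was not tested. PEP-WT members held 2669427 UMIs in all, with a median of 8444 UMIs per barcode and a range of 565 to 51867. PEP-619WW members held 997009 UMIs, with a median of 6114 and a range of 513 to 65575. Over all barcodes the medians were 2832 and 3293 UMIs. The 2 libraries shared 39 barcode sequences, none of them between members of both. Some barcodes lay close to the edges of the rule, with 32 PEP-WT and 8 PEP-619WW members at exactly 3 UMIs of the rule genes, and 46 and 22 barcodes just outside at 2. Between 10% and 20% hemoglobin lay 14 and 3 members, and 13 and 3 barcodes lay just outside, from 20% to 30%.

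The genes of the rule were used to choose the barcodes, so their values are a description. Car1 and Car2 encode carbonic anhydrases and neighbor each other on chromosome 3 of GRCm38 (14766216 to 14808368 and 14886273 to 14900770). Klf1, the transcription factor of the adult globin program, lies on chromosome 8 (84901928 to 84905291) and Ermap, an erythroid membrane protein of the immunoglobulin superfamily, on chromosome 4 (119175457 to 119190011). A Car1 UMI was found in 191 of 203 PEP-WT and 68 of 68 PEP-619WW members. Klf1 was found in 157 and 51 members, and Ermap in 143 and 37. Summed over members, Car1 stood at 1264 UMIs per 1000000 (CPM) in PEP-WT and 1446 CPM in PEP-619WW.

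Markers that the rule did not name carried the same identity. Car2 was at 1919 CPM in PEP-WT members and 1486 CPM in PEP-619WW members, against 9.09 and 7.66 CPM in B cell barcodes, which should lack it. Once each barcode was thinned to 1000 UMIs, 79.4% of PEP-WT members (95% Clopper-Pearson interval 72.9 to 84.9%) and 71.0% of PEP-619WW members (58.1 to 81.8%) kept a Car2 UMI, while 1.30% and 1.66% of B cell barcodes did. Without thinning the shares of members were 194 of 203 and 64 of 68. Thinning left out 14 PEP-WT and 6 PEP-619WW members of lower depth. Gata1 was at 98.1 and 70.2 CPM, Epor at 90.7 and 82.2 CPM, and the Rh-associated membrane glycoprotein Rhag at 136 and 165 CPM, each under 0.5 CPM in B cell barcodes of both libraries. These defining markers were thus present in both libraries and close to absent from lymphocyte barcodes. Those lymphocyte barcodes were chosen to hold no UMI of Car1, Klf1 or Ermap. That choice can lower other erythroid genes there, and its part was not tested.

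**Figure D1:**
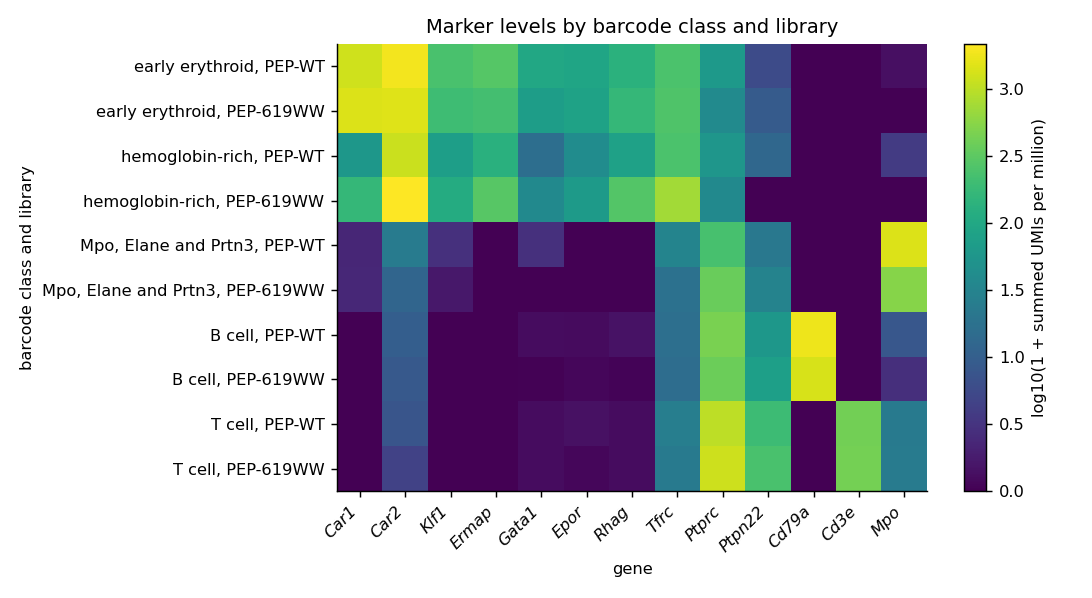
Heat map of marker genes (x axis) in 5 barcode classes of the 2 libraries (y axis), with color for log10 of 1 plus summed CPM. Car1, Car2, Klf1, Ermap, Gata1, Epor and Rhag are high in the early erythroid rows, and Car1, Klf1, Gata1 and Epor have lower CPM in the hemoglobin-rich rows. Hemoglobin genes and their chaperone take 72.3% of UMIs in the PEP-WT and 48.9% in the PEP-619WW hemoglobin-rich row, which lowers the CPM of other genes there. Ptprc and Ptpn22 are highest in the T cell rows. B and T cell barcodes were chosen without a UMI of Car1, Klf1 or Ermap.

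With the genes of the rule left out, the 20 genes that stood farthest above the rest of their library, with at least 100 UMIs in the members of each, were led by Ces2g, a carboxylesterase. Ces2g was at 113 CPM in PEP-WT members against 2.84 CPM in all other PEP-WT barcodes, and at 118 CPM against 3.46 CPM in PEP-619WW. The group held the membrane and transport genes Aqp1 (the water channel, 189 and 141 CPM), Rhd (206 and 154 CPM), Smim1 (the Vel blood group protein, 163 and 123 CPM), Cldn13 (179 and 184 CPM) and Tspan33 (126 and 146 CPM). It also held Hemgn, an erythroid nuclear protein, at 171 and 210 CPM, Tspo2, an erythroid cholesterol-binding protein, at 179 and 139 CPM, and the metallothionein Mt2 at 697 and 990 CPM. C1qtnf12, a secreted protein of the C1q and TNF family, was at 595 CPM in PEP-WT and 429 CPM in PEP-619WW. The other members of the group were Gstm5, Bex4, Gm15915, Car2, Cited4, Rhag, Abcb4, Cox6b2, Lmna and Prkar2b. In hemoglobin-rich PEP-WT barcodes, which are further along in maturation, C1qtnf12 was at 9.40 CPM and Ces2g at 16.9 CPM, whereas Hemgn was at 209 CPM and Rhd at 260 CPM. By CPM the first pair was therefore lower and the second at least as high in the hemoglobin-rich class. Hemoglobin genes and their chaperone took 72.3% of UMIs in that PEP-WT class and 1.18% in PEP-WT members. This lowers the CPM of other genes in the hemoglobin-rich class, and these values are not scaled without hemoglobin.

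RNA of Ptprc, which encodes CD45, the basis of the sort, was low in these cells. The counts do not measure CD45 protein. Ptprc stood at 61.1 CPM in PEP-WT members and 38.1 CPM in PEP-619WW members, against 549 and 539 CPM over all barcodes. At 1000 UMIs per barcode, 6.35% of PEP-WT and 11.3% of PEP-619WW members held a Ptprc UMI, with intervals of 3.32 to 10.8% and 4.66 to 21.9%, and 42.6% and 40.3% of B cell barcodes did. Ptpn22, the edited gene (chromosome 3, 103859795 to 103912247), was near the limit of detection, with 13 UMIs in PEP-WT members (4.87 CPM) and 8 in PEP-619WW members (8.02 CPM). T cell barcodes held 192 and 239 CPM of Ptpn22. The 3′ counts do not read the edited codon and so do not check the genotype labels.

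Other lineages were measured beside each result. Over the members, 17 and 6 UMIs fell on the 5 genes of the granulocyte-monocyte progenitor list, part of which the rule limits. The stem and progenitor list had at least 3 UMIs in 98 of 203 PEP-WT and 30 of 68 PEP-619WW members, with Cd34 and Hlf at 0 in both. Most of its UMIs were of Ly6a, which the interferon-stimulated list also holds, with 1624 of 1881 in PEP-WT and 328 of 451 in PEP-619WW. The dendritic cell list, which shares class II and interferon-stimulated genes with other lists, had at least 3 UMIs in 126 and 32 members, with Siglech at 0 in both. The basophil or mast cell list did in 20 and 5 members, with Mcpt8, Fcer1a, Cyp11a1 and Il6 at 0 in both. Gata2, also on the stem and progenitor list, gave 109 of its 150 PEP-WT UMIs and 51 of its 57 PEP-619WW UMIs. Immunoglobulin genes made up 3807 CPM in PEP-WT members and 5290 CPM in PEP-619WW members, against 75563 and 109303 CPM over the libraries. A single PEP-WT barcode held 95.7% of the PEP-WT UMIs of Ighg2b. The neutrophil and monocyte list took 1086 and 1375 CPM of members, with at least 3 UMIs in 39 of 203 and 30 of 68 of them, and 10589 and 16089 CPM of the libraries. Genes of MHC class II, which B cells and dendritic cells express, were detected too, and H2-Aa was set beside T cell barcodes of the same library, which should lack it. H2-Aa was at 277 CPM in PEP-WT members and 310 CPM in PEP-WT T cell barcodes, and at 109 CPM in PEP-619WW members and 155 CPM in PEP-619WW T cell barcodes. The 4 genes of the B cell list with enough UMIs, all of class II antigen presentation, were at least 1.5-fold lower in PEP-619WW, as were 4.87% of all genes tested. An H2-Aa UMI was found in 55.7% of PEP-WT members and 29.1% of PEP-WT T cell barcodes, at median depths of 8444 and 5228 UMIs. The source of these transcripts and their part in the other differences were not tested. The B cell list had at least 3 UMIs in 124 PEP-WT and 30 PEP-619WW members and the plasma cell list in 41 and 21. At least 3 UMIs of 12 chosen genes of other lineages were held by 35 PEP-WT and 12 PEP-619WW members. Results without these barcodes are given below as without other lineages. The members left still held other-lineage UMIs, with 325 and 43 of H2-Aa and 486 and 54 of Cst3. Transcripts of 4 Y-linked genes were at 0 in all members, and of members with at least 5000 UMIs, 108 of 125 and 27 of 38 held Xist.

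The early erythroid share of the PEP-WT library was 1.37%, with a Clopper-Pearson interval of 1.19 to 1.57%. In the PEP-619WW library it was 0.793% (0.616 to 1.00%). The difference was -0.577 percentage points (95% Newcombe interval -0.837 to -0.303). When the rule was applied after thinning every barcode to 1000 UMIs, with 978 and 1173 shallower barcodes dropped from PEP-WT and PEP-619WW, the shares were 0.491% and 0.432%. The difference was then -0.0590 points, with an interval of -0.241 to 0.146 that includes 0. Hemoglobin-rich barcodes, with at least 20% hemoglobin, numbered 506 in PEP-WT (3.41%) and 25 in PEP-619WW (0.292%). Red cell lysis and the CD45+ gate, taken from the design text, would act on both classes and could set these shares. Their part was not tested.

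The members were ordered by hemoglobin content, which the rule capped and which rises in maturing red cells. The median hemoglobin share was 0.0554% in PEP-WT members and 0.133% in PEP-619WW members, and the highest were 19.6% and 18.4%. B cell barcodes, which make no hemoglobin, held 0.0633% of summed UMIs in PEP-WT and 0.0105% in PEP-619WW, with medians per barcode of 0.0167% and 0%. The members of both libraries together were cut into 3 equal bins at 0.0238% and 0.376% hemoglobin. The lower cut lies within these B cell values, below the summed share in PEP-WT and above that in PEP-619WW, so free hemoglobin RNA and maturation cannot be told apart between the low and middle bins. The low, middle and high bins held 71, 68 and 64 PEP-WT members and 19, 22 and 27 PEP-619WW members. The low bin differed in depth between the libraries, where PEP-WT members had a median depth of 17805 and PEP-619WW members of 5969 UMIs, against 5396 and 5786 in the middle bin and 6031 and 6936 in the high bin.

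Genes of early progenitors were lowest in the high bin of both libraries. Kit, the stem cell factor receptor, went from 52.5 CPM in the low bin to 16.0 and 1.90 CPM in the middle and high bins of PEP-WT, and from 41.4 to 34.9 and 2.69 CPM in PEP-619WW. Myb, a transcription factor of proliferating progenitors, went from 264 to 126 and 17.1 CPM in PEP-WT and from 236 to 136 and 10.8 CPM in PEP-619WW. Gata2 was at 67.5, 23.5 and 0 CPM in the PEP-WT bins and at 73.8, 87.3 and 2.69 CPM in the PEP-619WW bins. The 10 genes with the largest ratio toward the low bin in both libraries were Egfl7, Myb, Kit, Icam2, Rab4a, Ptprcap, Ramp1, Hhex, Frat2 and Cbfa2t3, among them the hematopoietic regulators Hhex and Cbfa2t3.

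Genes of hemoglobinization and the red cell membrane were highest in the high bin. Slc4a1, the band 3 anion exchanger, was at 0.750, 3.70 and 547 CPM in the PEP-WT bins and at 2.95, 0 and 258 CPM in the PEP-619WW bins. Alas2, the first enzyme of heme synthesis in red cells, had 2, 1 and 110 UMIs in the PEP-WT bins (209 CPM in the high bin) and 0, 0 and 36 UMIs in the PEP-619WW bins (96.8 CPM in the high bin). Genes with the largest ratio toward the high bin also included Sptb, Lpcat1, Rgcc, Hebp1, Abcb10, Slc25a37, Sox6 and Ctse, among them the spectrin beta chain, the mitochondrial iron importer Slc25a37 and its partner Abcb10. Tfrc went from 135 to 223 and 580 CPM in PEP-WT and from 130 to 223 and 419 CPM in PEP-619WW. Mki67, a marker of cycling cells, was at 1324 CPM in the high bin of PEP-WT against 394 CPM in the low bin, and at 901 against 346 CPM in PEP-619WW. Ribosome biogenesis genes ran the other way, from 122 to 44.1 UMIs per 10000 in PEP-WT and from 138 to 76.1 in PEP-619WW.

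**Figure D2:**
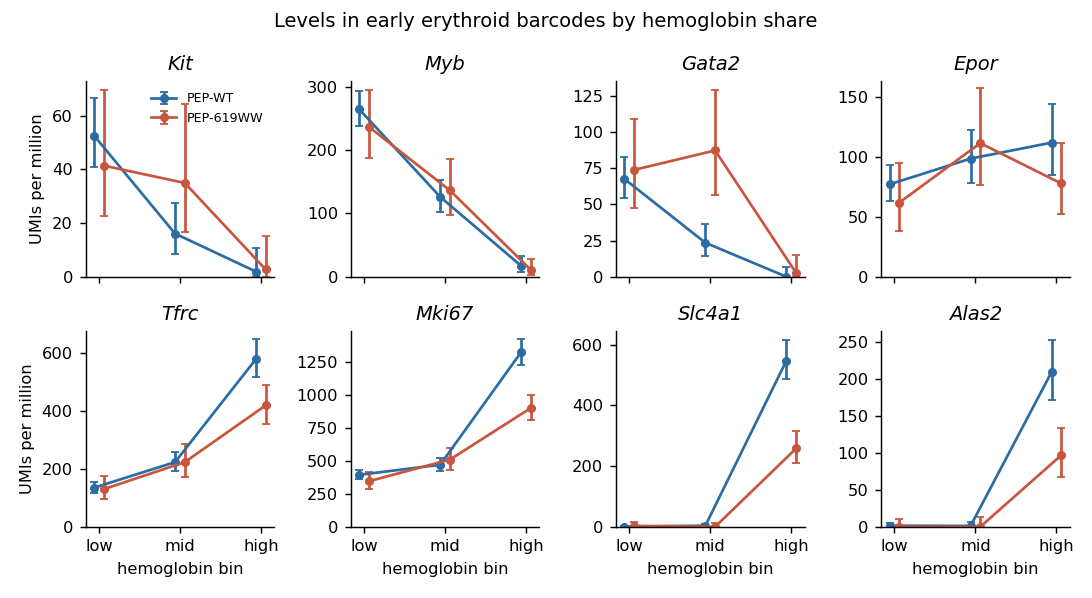
Level of 8 genes in CPM (y axes, each from 0) in the low, middle and high hemoglobin bins (x axes) of early erythroid barcodes, with points for the summed members of PEP-WT and PEP-619WW and bars for exact 95% Poisson intervals. Kit and Myb are lowest in the high bin, and Slc4a1 and Alas2 are highest in it, with the PEP-WT value there above the PEP-619WW value for both.

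Within the high bin these maturation genes were lower in the PEP-619WW library. The log2 ratio of PEP-619WW over PEP-WT was -1.08 for Slc4a1 (95% exact interval -1.43 to -0.75) and -1.11 for Alas2 (-1.70 to -0.56). The heme synthesis list summed to 7082 CPM in PEP-WT and 4842 CPM in PEP-619WW in that bin, a log2 ratio of -0.55 (-0.63 to -0.47). Membrane and cytoskeleton genes had -0.48 (-0.56 to -0.39). Ribosome biogenesis genes were higher in PEP-619WW there, with a log2 ratio of 0.79 (0.71 to 0.87). The median hemoglobin share within the high bin was 3.56% in PEP-WT and 2.63% in PEP-619WW, and its part in these ratios was not tested. Over all members together the log2 ratio was -0.03 for the summed heme synthesis list (-0.10 to 0.03). The high bin held 39.7% of PEP-619WW members and 31.5% of PEP-WT members.

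PEP-619WW was then compared with PEP-WT across all genes, with a log2 ratio of summed CPM for the 4394 genes that had at least 100 UMIs over both libraries. At least 1.5-fold lower in PEP-619WW were 214 genes (4.87% of those tested), and at least 1.5-fold higher were 126 genes (2.87%). Both counts depended on the weighting of barcodes and on the UMI minimum, as given in the last section. The median log2 ratio was -0.01. Genes of the interferon response were lower in PEP-619WW. In sums over all members the erythroid lists lay close to a ratio of 1, whereas within hemoglobin bins heme synthesis was lower in PEP-619WW. As given above, the low bin differed in depth and the high bin in median hemoglobin share between the libraries. The part of this in the ratios within bins was not tested. The counts of lower and higher genes rest on the size of the ratio in 2 libraries, so they compare those libraries and not the genotypes as such.

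**Figure D3:**
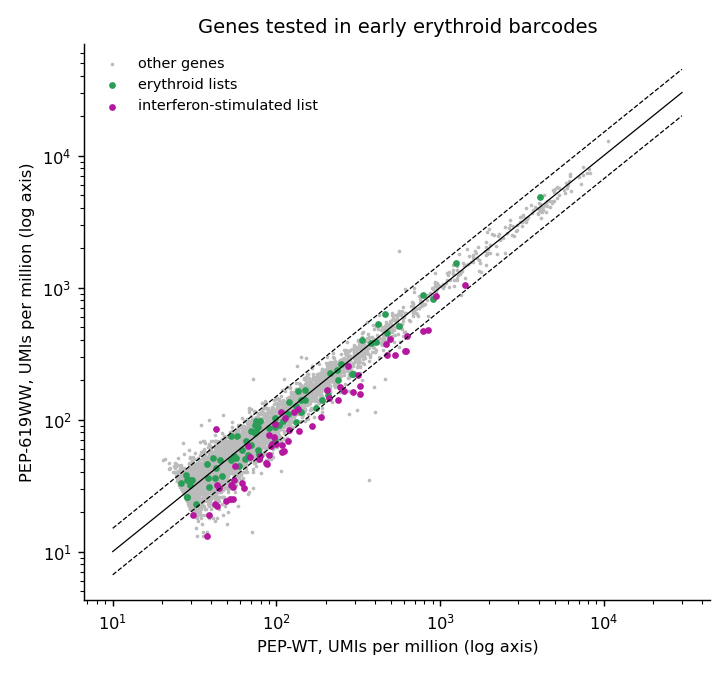
Summed CPM in PEP-WT (x axis, log scale) and PEP-619WW (y axis, log scale) for genes with at least 100 UMIs in early erythroid barcodes, with the solid line at a ratio of 1 and dashed lines at 1.5-fold. Interferon-stimulated genes lie mostly below the solid line and 36 of them on or below the lower dashed line, whereas genes of the 4 erythroid lists lie between the dashed lines.

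The transcription factors of the erythroid lineage had a median log2 ratio of -0.07 over 22 genes tested, none past 1.5-fold. Klf1, part of the rule, was at 237 CPM in PEP-WT and 199 CPM in PEP-619WW. Gata1 had a log2 ratio of -0.48 (-0.89 to -0.10), Tal1 of -0.17 (-0.53 to 0.17), Gfi1b of 0.12 (-0.27 to 0.50) and Zfpm1, the Gata1 cofactor FOG1, of 0.09 (-0.14 to 0.31). Only the first of these intervals excludes a ratio of 1.

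Heme synthesis genes had a median of -0.06 over 15 genes, none past 1.5-fold. Tmem14c, a porphyrin transporter, was at 905 and 820 CPM, and Cpox, coproporphyrinogen oxidase, at 417 and 528 CPM (log2 ratio 0.34, interval 0.19 to 0.49). The list median depended on the weighting of barcodes, at -0.40 for the mean over barcodes and -0.51 for the mean over hemoglobin bins. It was 0.14 with the hemoglobin limit at 10%. Without members holding class II and myeloid UMIs 5 genes of the list could be tested, of which 4 were at least 1.5-fold lower (8.25% of the 473 genes tested in that subset were), with a median of -0.87 and a summed log2 ratio of -0.74 (-0.90 to -0.58). Summed within the low, middle and high bins the list had log2 ratios of -0.33, -0.17 and -0.55, with intervals that exclude 0.

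Iron genes had a median of 0.09 over 17 genes with none past 1.5-fold. Tfrc was at 249 and 265 CPM, and the ferritin chains Fth1 and Ftl1 were at 4090 and 4835 CPM and at 1253 and 1524 CPM. Membrane and cytoskeleton genes had a median of -0.05 over 18 genes, also with none past 1.5-fold, and summed within the bins they had -0.06 (-0.19 to 0.07), -0.25 (-0.38 to -0.13) and -0.48. The 4 hemoglobin genes, whose sum the rule capped, had log2 ratios from 0.07 for Hbb-bs to 0.55 for Hba-a2 over all members, whereas in the high bin the hemoglobin list took 584 UMIs per 10000 in PEP-WT and 361 in PEP-619WW. The iron list had summed log2 ratios of 0.04, 0.23 and -0.14 (-0.20 to -0.09) in the low, middle and high bins.

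The erythropoietin pathway was measured by 10 genes, 1 of them higher and 2 lower past 1.5-fold, beside 2.87% and 4.87% of all genes tested. Epor was at 90.7 and 82.2 CPM and Jak2 at 43.5 and 35.1 CPM. Pim1, a kinase induced by STAT5, was at 111 CPM in PEP-WT and 166 CPM in PEP-619WW (log2 ratio 0.59, 0.31 to 0.87). Ptpn6, the phosphatase SHP-1 that attenuates the erythropoietin receptor, was at 71.6 and 30.1 CPM (-1.25, -1.86 to -0.69). The second lower gene was Ptprc, which encodes the CD45 of the sort. Ptpn6 is also on the list of interferon receptors and JAK-STAT genes below. Its log2 ratio was -1.08 (-1.83 to -0.39) without other lineages. Without members holding class II and myeloid UMIs it was -1.02 (-3.48 to 0.87), from 12 and 3 UMIs. The list for stress erythropoiesis and BMP signaling had 4 genes tested and 1 lower, the glucocorticoid receptor Nr3c1, at 53.9 and 30.1 CPM (-0.84, -1.46 to -0.27).

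S phase genes had a median log2 ratio of 0.18 over 39 genes, with 30 of them above 0, 2 at least 1.5-fold higher and none lower. Among all genes tested 2.87% were higher and 4.87% lower, the shares against which this count and those of the other cell cycle lists stand. The higher pair were E2f1, a transcription factor of S phase entry, at 27.3 and 55.2 CPM, and Ccnd2, cyclin D2, at 116 and 177 CPM (0.60, 0.33 to 0.88). The log2 ratio of E2f1 was -0.67 in members under 5000 UMIs. Mcm3, a subunit of the replicative helicase, was at 203 and 300 CPM. In sums by hemoglobin bin the S phase list had log2 ratios of 0.32, 0.09 and -0.19 from the low to the high bin, so its sign was not the same in all 3. G2 and M phase genes had a median of 0.02 over 39 genes, with Kif23, a mitotic kinesin, higher at 42.7 and 68.2 CPM. Summed by bin the list had log2 ratios of -0.26 (-0.32 to -0.19), 0.05 and -0.26 (-0.31 to -0.21). Cdkn1a, the cell cycle inhibitor p21, was the 1 gene of 9 inhibitors past 1.5-fold, at 49.8 CPM in PEP-WT and 16.0 CPM in PEP-619WW (-1.63, -2.48 to -0.88). It was seen in 33 and 9 members and a single PEP-WT barcode held 19.5% of its PEP-WT UMIs. Without members holding class II and myeloid UMIs its log2 ratio was 0.98, from 5 UMIs in each library and with an interval of -1.13 to 3.10.

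Housekeeping lists had medians near 0 in sums over all members. Cytosolic ribosomal protein genes made up 31.0% of UMIs in PEP-WT members and 30.8% in PEP-619WW members, with a median log2 ratio of -0.02 over 86 genes. Oxidative phosphorylation had a median of -0.03 over 78 genes, glycolysis of 0.09 over 14 genes and chaperones of -0.02 over 19 genes, with none past 1.5-fold in these 4 lists. Ribosome biogenesis had a median of 0.09 over 30 genes with none past 1.5-fold. Within the low, middle and high bins its summed log2 ratios were 0.18, 0.17 and 0.79, and those of glycolysis were 0.26, 0.11 and 0.53. The counts that follow stand beside 2.87% higher and 4.87% lower over all genes tested, and most are of 1 gene. Of 17 histone genes, Hist1h4d and Hist1h3c were higher, at 164 and 247 CPM and at 53.2 and 96.3 CPM. Antioxidant genes had a median of 0.00 over 25 genes, with the catalase gene Cat higher. The mitochondrially encoded genes had a median of 0.05 over 12 genes, late maturation genes of -0.17 over 16 and cell death genes of -0.11 over 13, none past 1.5-fold. Among 10 immediate early genes 1 was lower, the mRNA decay factor Zfp36 at 47.2 and 26.1 CPM, and among 14 genes of the integrated stress and unfolded protein responses 1 was lower, Herpud1 at 37.5 and 19.1 CPM. Of 4 tested genes on the list of Ptpn22 and its partners, Ptpn18, a related phosphatase, was lower at 245 and 160.5 CPM. The metallothionein Mt1 was at 610 CPM in PEP-WT and 973 CPM in PEP-619WW (0.67, 0.56 to 0.79), and it was the 1 higher gene among 23 early erythroid companions, of which Tspan8, a tetraspanin, was the 1 lower.

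**Figure D4:**
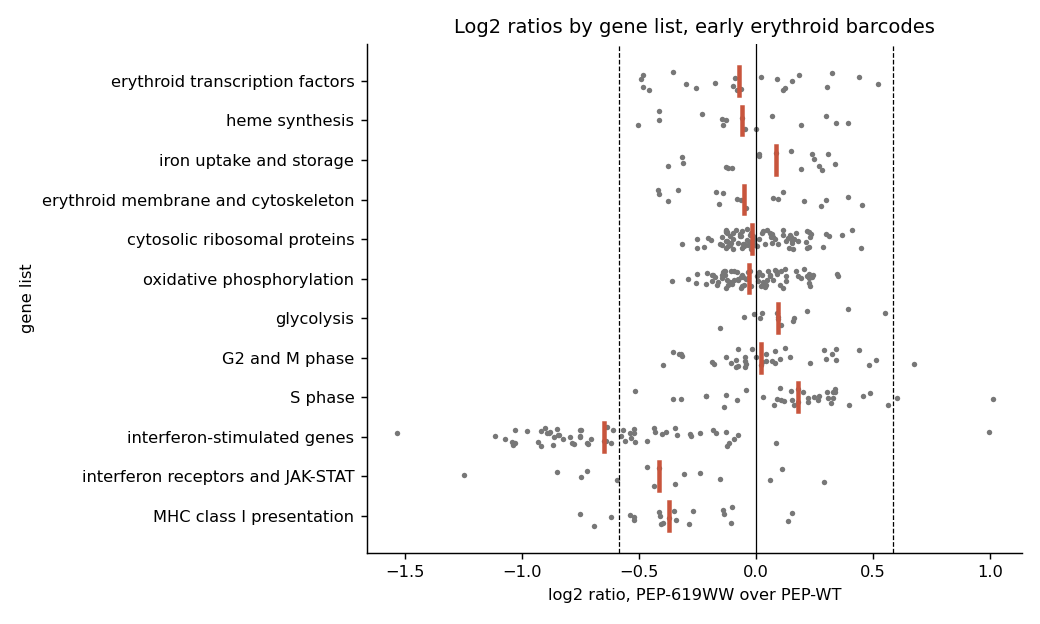
Log2 ratio of PEP-619WW over PEP-WT (x axis) for the genes tested in 12 lists (y axis, points spread vertically for visibility), with red bars at the list medians and dashed lines at 1.5-fold. Erythroid, ribosomal and energy lists center near 0, and the interferon-stimulated list has its median at -0.65.

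Interferon-stimulated genes were lower in PEP-619WW members. Of 63 genes tested, 61 had a log2 ratio below 0, 36 were at least 1.5-fold lower (57.1%, beside 4.87% of all genes) and 1 was at least 1.5-fold higher (2.87% of all genes were), with a median of -0.65 beside -0.01 over all genes. Together they made up 1.43% of UMIs in PEP-WT members and 0.964% in PEP-619WW members, a log2 ratio of -0.57 (-0.60 to -0.53). Isg15 was at 846 CPM in PEP-WT and 477 CPM in PEP-619WW (-0.83, -0.97 to -0.68). Bst2 was at 620 and 332 CPM (-0.90, -1.08 to -0.73). Zbp1, a sensor of Z-form nucleic acid that can start cell death, was at 322 and 157 CPM (-1.03, -1.29 to -0.79). Ly6a, the surface antigen Sca-1, was at 608 and 329 CPM (-0.89, -1.06 to -0.71). These genes were abundant in both libraries and were lower by a similar factor.

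The lowest ratio of the list was that of Phf11d, at -1.54 (-2.50 to -0.70) from 101 and 13 UMIs. Its sign turned in members under 5000 UMIs. The ISG15-specific protease Usp18 was at 63.3 and 30.1 CPM, the helicase Dhx58 at 39.0 and 19.1 CPM and the viral RNA-binding Ifit1 at 42.0 and 23.1 CPM. Iigp1, an immunity-related GTPase induced mainly by type II interferon, was at 533 and 309 CPM and Gbp2 at 322 and 179 CPM. The transcription factor Irf7 was at 187 and 104 CPM. Nearer to a ratio of 1 lay Ifitm3 at 1423 and 1054 CPM (-0.43, -0.53 to -0.33) and Lgals9 at 938 and 862 CPM. The exception was Ifitm1, at 42.7 CPM in PEP-WT and 85.3 CPM in PEP-619WW (1.00, 0.57 to 1.42), though it was seen in 17 and 5 members only and 55.3% of its PEP-619WW UMIs lay in a single barcode. The list was not split into genes of type I and type II interferon, so these branches were not compared.

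Among 15 interferon receptor and JAK-STAT genes the median was -0.41, with 5 at least 1.5-fold lower and none higher, beside 4.87% and 2.87% of all genes tested. The 5 were Ptpn6, Irf1, Irf2, the interferon gamma receptor chain Ifngr1 and the phosphatase Ptpn1. Irf1 was at 105 and 58.2 CPM and Ifngr1 at 66.3 and 40.1 CPM. Jak1 was at 91.4 and 95.3 CPM and Ptpn2 at 48.3 and 59.2 CPM, with intervals that include a ratio of 1. Among 21 genes of MHC class I presentation the median was -0.37 and 3 were at least 1.5-fold lower, against the same 4.87%: the immunoproteasome subunits Psmb8 (789 and 467 CPM) and Psmb10 (474 and 308 CPM), which the interferon-stimulated list also holds, and the class Ib gene H2-T22 (169 and 104 CPM). H2-K1, a classical heavy chain, was at 1724 and 1333 CPM, and B2m, its light chain, at 1664 and 1830 CPM (0.14, 0.06 to 0.22). The summed class I list had a log2 ratio of -0.29 (-0.32 to -0.25) in members with at least 5000 UMIs and 0.006 (-0.14 to 0.15) in shallower members. From the low to the high hemoglobin bin it took 108, 99.4 and 84.9 UMIs per 10000 in PEP-WT and 93.8, 75.2 and 80.7 in PEP-619WW.

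The lower level was spread over barcodes. The interferon-stimulated list took a median of 135 UMIs per 10000 in PEP-WT members (lowest 19.1, highest 500.0) and 90.3 in PEP-619WW members (18.2 to 227). Of the 68 PEP-619WW members, 59 lay below the PEP-WT median, which is 86.8% (76.4 to 93.8%). That interval is over barcodes of a single pool and not over mice. Of 203 PEP-WT members, 23 lay below the PEP-619WW median. The ranges overlapped. By hemoglobin bin the summed list had log2 ratios of -0.45 (-0.50 to -0.40), -0.69 (-0.76 to -0.63) and -0.38 (-0.44 to -0.32), so it was lower in PEP-619WW in each bin. Without the members that held 3 UMIs of the chosen genes of other lineages the summed log2 ratio was -0.52 (-0.55 to -0.48), with 168 and 56 members. Without members holding 3 UMIs of 8 class II and myeloid genes, a choice made after seeing the data, it was -0.50 (-0.61 to -0.40) from 72 and 31 members. It was -0.58 in members with at least 5000 UMIs and -0.44 in shallower members.

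**Figure D5:**
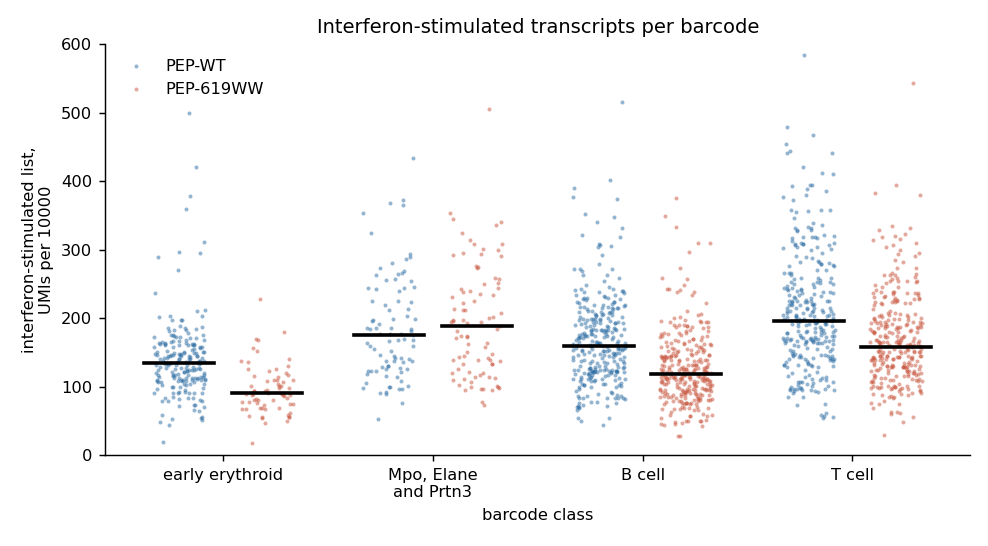
UMIs of the interferon-stimulated list per 10000 UMIs (y axis, from 0 to 600) for single barcodes of 4 classes (x axis), with PEP-WT and PEP-619WW side by side, black bars at the median of all barcodes of a class, and at most 300 barcodes drawn at random per class. The early erythroid medians are 135 and 90.3, and 4 PEP-WT B cell and 2 PEP-WT T cell barcodes lie above the axis.

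The same list was summed in other classes of the same 2 libraries, which share the pools of mice and are therefore not independent of the values above. Over the 61 interferon-stimulated genes tested in all 4 classes, the median log2 ratio was -0.65 in early erythroid barcodes, -0.48 in B cell barcodes, -0.26 in T cell barcodes and 0.09 in barcodes with at least 5 UMIs of Mpo, Elane and Prtn3, genes of granulocyte-monocyte progenitors. In that order, 35, 25, 15 and 7 of them were at least 1.5-fold lower, beside 4.87%, 4.13%, 2.99% and 6.94% of all genes tested in those classes. At least 1.5-fold higher were 4.66% of all genes tested in B cell, 2.85% in T cell and 7.85% in the Mpo, Elane and Prtn3 class. The Mpo, Elane and Prtn3 class was not of the same make-up in both libraries, and its neutrophil and monocyte list took a median of 74.3 UMIs per 10000 in PEP-WT and 222 in PEP-619WW, its S phase list 46.3 and 13.2. An Mpo UMI was found in 47 of its 89 PEP-WT and 20 of its 87 PEP-619WW barcodes, and the part of this in its ratios was not tested. Over the 70 list genes tested in that class 7 were lower and 5 higher. In hemoglobin-rich barcodes only 18 genes of the list had enough UMIs, with a median of -0.35, 5 lower and 6 higher, where 6.49% of all genes tested were lower and 67.1% higher. The differences between classes were not tested. Single genes did not follow 1 order. Isg15 had log2 ratios of -0.83 in early erythroid, -1.46 in B cell, -1.13 in T cell and -0.80 in Mpo, Elane and Prtn3 barcodes. Zbp1 had -1.03, -0.60, -0.26 and 0.05 in the same order, and Gbp2 had -0.85, 0.01, -0.41 and 0.82. The median of MHC class I presentation was -0.37 in early erythroid barcodes, -0.05 in B cell, -0.08 in T cell and -0.12 in Mpo, Elane and Prtn3 barcodes. In hemoglobin-rich barcodes it was 0.72 over 7 genes, beside a median of 0.98 over all 493 genes tested there.

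Over all genes, inside and outside these lists, those with the most extreme ratios were named by rule: an interval that excludes 1 and the same sign in all 3 hemoglobin bins, which 293 lower and 328 higher genes met. The 12 lowest were Cst3, Cdkn1a, Phf11d, Lst1, Aif1, Gna15, H2-Eb1, Ass1, Myg1, Pxmp2, H2-Aa and Hes1. After thinning to 1000 UMIs the log2 ratio was above 0 for Cst3 (0.50), H2-Aa (0.67) and Hes1 (2.09). Thinning left 68 and 32 members of 1000 UMIs each, and the ratios are given without intervals, so these signs are uncertain. Without members holding 3 UMIs of the chosen genes of other lineages the log2 ratio of Lst1 was 0.0218, from 12 and 5 UMIs (-1.84 to 1.63). Under other settings the sign also turned for Cdkn1a and Phf11d, as given in the last section. Cst3, cystatin C, H2-Eb1, H2-Aa, Lst1 and Aif1 are genes of antigen-presenting and myeloid cells. H2-Aa was seen in 113 and 25 members and H2-Eb1 in 118 and 26, and a single barcode held 51.4% and 35.6% of their PEP-619WW UMIs. Without the barcode that held the most in each library their log2 ratios were -2.22 and -1.88, lower than the -1.34 and -1.39 over all members. Cst3 was at 401 CPM in PEP-WT members and 114 CPM in PEP-619WW members, and at 598 and 320 CPM in T cell barcodes. Gna15, a G protein alpha subunit of blood cells, was at 58.4 and 22.1 CPM (-1.41, -2.12 to -0.76) and was seen in 69 and 13 members. Ass1, argininosuccinate synthase of arginine synthesis, was at 107 and 41.1 CPM (-1.38, -1.89 to -0.90), in 79 and 16 members. Pxmp2, a peroxisomal membrane channel, had a log2 ratio of -1.34 (-2.27 to -0.52), and Myg1, a mitochondrial and nuclear exonuclease, was at 50.9 and 20.1 CPM.

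The 12 highest were Snhg9, Map4k1, Cda, Elac2, C1qc, Senp3, Arhgef12, E2f1, Cd164, Gtpbp1, Ctps and Fabp5. Under some alternative settings, given in the last section, the sign turned for C1qc, Arhgef12, E2f1 and Cd164. Snhg9, a small nucleolar RNA host gene, was at 34.8 CPM in PEP-WT and 90.3 CPM in PEP-619WW (1.37, 0.94 to 1.81), in 65 and 36 members. Map4k1, a hematopoietic kinase of the MAP kinase cascade, was at 27.0 and 66.2 CPM (1.30, 0.79 to 1.80), in 51 and 31 members. The cytidine deaminase Cda was at 20.2 and 49.1 CPM (1.28), and its log2 ratio was 0.69 as the mean over hemoglobin bins. CTP synthase Ctps was at 35.6 and 69.2 CPM (0.96), and its log2 ratio was 0.16 in members under 5000 UMIs. Fabp5, a fatty acid-binding protein, had the most UMIs of the 12, at 152 and 295 CPM (0.95, 0.73 to 1.17), and in B cell and T cell barcodes its log2 ratio was -0.73 and -0.56. C1qc is a macrophage gene, and a single barcode held 63.8% of its PEP-619WW UMIs. Without the barcode that held the most in each library its log2 ratio was 0.30.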

How the data were processed

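Splenocytes of 2 genotypes were assayed by 10x Genomics 3′ single-cell RNA sequencing. The authors aligned and counted reads with Cell Ranger against mm10, and the deposited files hold raw UMI counts for 32285 genes, 32158 of them with a symbol (the submitters' processing notes name Cell Ranger 6.0.0). Of 2 deposited sets per genotype, run 1 was analysed, since run 2 held no member. The relation between them is not stated, and the cell numbers in the study's methods equal the barcode numbers of run 2. All barcodes were kept and no doublet caller was run, so doublets remain among the members. An alternative left out members with UMIs of other lineages.

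Counts were summed over members, scaled to 1000000, and compared as a log2 ratio with an exact conditional 95% interval. A call is a 1.5-fold ratio with at least 100 UMIs. The rule, members and gene lists were chosen with earlier results of these data known. Comparison classes were B cell (Cd79a at least 3), T cell (Cd3e at least 2), Mpo, Elane and Prtn3 (sum at least 5) and hemoglobin-rich barcodes. B and T cell barcodes also held no UMI of Car1, Klf1 or Ermap. All classes but the hemoglobin-rich class held under 20% hemoglobin. Named genes were the 12 highest and 12 lowest ratios with an interval excluding 1 and 1 sign in 3 hemoglobin bins (rule, hemoglobin, immunoglobulin and predicted genes left out), the 20 most specific genes, 10 genes each way between hemoglobin bins, and examples of each list by UMIs or ratio. Alternatives were 13 planned and 4 added settings. The ratio and its interval were tested on simulated data with counting error only, so spread between barcodes was not part of that test. Computations ran in python 3.11.15 with pandas 2.3.3 for tables, numpy 2.4.6 and scipy 1.17.1 for intervals, and matplotlib 3.10.9 for plots. Values of some genes are not reported here.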

Additional observations from a re-analysis of the deposited data

Results flagged for a closer look

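The median log2 ratio of the interferon-stimulated list was -0.65 in early erythroid barcodes and 0.11 in barcodes with at least 5 UMIs of Mpo, Elane and Prtn3, over the genes tested in each class. The latter class was not of the same make-up in both libraries: neutrophil and monocyte genes took a median of 74.3 UMIs per 10000 in its PEP-WT barcodes and 222 in its PEP-619WW barcodes, and the 5 genes of the granulocyte-monocyte progenitor list 24.1 and 13.3. With 1 library per genotype the difference was not tested.

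Run 2 was used in no comparison, and it held some erythroid signal. A single UMI of Car1, Klf1 or Ermap was found in each of 20 of 9539 PEP-WT barcodes and in each of 17 of 11029 PEP-619WW barcodes, and no barcode held more than 1. Of the member barcode sequences 1, from PEP-WT, also occurred in run 2, in PEP-619WW. No barcode met the rule, and a count of 0 allows a share of up to 0.0314% and 0.0272%, taken as 3 counts of the total. Hemoglobin made up at least 20% of UMIs in 90 PEP-WT barcodes and 1 PEP-619WW barcode of run 2.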

How the results depend on the processing

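No paired analysis was possible because each genotype has 1 library and the labels carry no replicate numbers, and for the same reason no replicate could be left out. Run 2 gave no value, since no barcode met the rule there. Of 439 recomputed values, 350 moved by less than their counting interval, or by less than 1.5 times for counts of genes.

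The difference in share was -0.0590 points after thinning to 1000 UMIs. It was -0.124 without members holding class II and myeloid UMIs and -0.176 for members under 5000 UMIs, both added after seeing the data. Higher and lower genes numbered 3 and 10 of 152 tested after thinning and 413 and 652 of 4394 for the mean over barcodes. They numbered 450 and 730 of 7562 with at least 30 UMIs per gene, and 23 and 48 of 1794 with at least 300. Without class II and myeloid barcodes they numbered 32 and 39 of 473, and under 5000 UMIs 11 and 22 of 332. Higher genes numbered 193 of 4394 for the mean over hemoglobin bins. The number of genes tested differed between settings, so these counts do not compare directly.

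The interferon-stimulated median stayed below 0 under every setting run. It was -0.61 with at least 5 early erythroid UMIs, -0.49 after thinning, where 2 genes of the list remained testable, and -0.60 without other lineages. It was -0.74 and -0.56 with at least 30 and 300 UMIs per gene, -0.53 without class II and myeloid barcodes and -0.54 without the deepest 10% of members. The S phase median was 0.0334 for the mean over hemoglobin bins, 0.25 without class II and myeloid barcodes, 0.0918 without the deepest members and -0.0904 under 5000 UMIs, where 2 genes remained testable. The heme synthesis median was 0.14 with hemoglobin below 10%, -0.40 for the mean over barcodes, -0.51 for the mean over hemoglobin bins, -0.87 without class II and myeloid barcodes and -0.29 under 5000 UMIs, the last from 3 genes. After thinning no gene of either list had 100 UMIs. The cause of these changes was not tested.

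Among the named genes the sign turned after thinning for Cd164 (-0.23), Cst3 (0.50), H2-Aa (0.67) and Hes1 (2.09). Those ratios come from 68 and 32 members of 1000 UMIs each and are given without intervals. Without other lineages the sign turned for Lst1 (0.0218, -1.84 to 1.63). Without class II and myeloid barcodes it turned for Cdkn1a (0.98), H2-Aa (0.14) and Hes1 (0.40). These rested on 5 and 5, 9 and 5, and 3 and 2 UMIs, with intervals that span both signs. H2-Aa is itself a class II gene, and that setting drops barcodes by such genes. Without the deepest members the sign turned for C1qc (-0.26), and under 5000 UMIs for Arhgef12 (-1.25), E2f1 (-0.67), Phf11d (0.33) and Hes1 (0.33). Depth limits genes under about 100 UMIs, and the 68 or fewer PEP-619WW members limit the precision of the early erythroid ratios.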
